A study of Saccharomyces cerevisiae with 20 samples.

Results

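The genes described here are 92 yeast mRNAs that the deposited list of transcript features credits with at least 1 upstream open reading frame (uORF), out of 869 genes in that list. GCN4, which also carries uORFs, was left out by the rule, and 776 listed genes have no listed uORF. A single uORF was listed for 54 members, 2 for 18, 3 for 2, 4 for 12, 6 for 2 (CUP9 and GSP2), 7 for 2 (ADH4 and KCH1, listed as YJR054W) and 8 for 2 (ODC2 and URA2).

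The cells were Saccharomyces cerevisiae BY4741 derivatives with a HIS3 marker beside the eIF4E gene, carrying either the temperature-sensitive allele cdc33-ts4-2 or wild-type CDC33. Each strain was grown in rich medium at 25°C, split, and kept for an hour at 37°C or at 25°C, so the 37°C samples of both strains were also heat-shocked. RNA-seq on polyadenylated RNA covered 3 replicates of cdc33-ts4-2 at 37°C and at 25°C and of CDC33 at 37°C and at 25°C. Ribosome profiling, in which nuclease-protected mRNA fragments (footprints) are sequenced from cycloheximide-treated extracts, covered 2 replicates of each of those groups. The paper reports that these reads lacked the typical footprint length distribution and in-frame enrichment, possibly through incomplete digestion. It relied on their low coverage of introns and 3′ UTRs. It adds that cycloheximide can cause artefacts, with gene-level values apparently little biased. Effects on leader reads were not tested here. The mutant protein is known to be scarcer than the wild type already at 25°C and to be lost at 37°C, so the 25°C mutant cells are not a full wild-type baseline. The mutant allele differs by point mutations, so its transcript level, which fell by 0.88 ± 0.28 in cdc33-ts4-2 and by 1.06 ± 0.28 in CDC33 cells at 37°C (log2 ± SE), does not check the labels.

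A 5′ leader is scanned by the small ribosomal subunit, which is loaded at the cap through eIF4F, the complex of the cap-binding protein eIF4E, the scaffold eIF4G and the helicase eIF4A. A start codon met before the main one can capture the ribosome. Ribosomes reach the main coding sequence by leaky scanning past the uORF's AUG, without translating it, or, having translated it, by reinitiation after its stop codon, and stops far from the mRNA's 3′ end can expose the mRNA to nonsense-mediated decay. In yeast FOL1 is among the mRNAs described with uORFs.

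The list itself was made from a measured change. Of its 869 genes, 866 were matched to the deposited comparison tables, which hold 5778 genes. For all 866 the listed fold equalled the fold in translation efficiency (TE, footprints relative to mRNA) at 37°C against 25°C in cdc33-ts4-2 relative to CDC33 within 0.0001 on the log2 scale, and all 866 had an adjusted p of 0.05 or less there. This strain-by-temperature difference is called normalized below. Every member was therefore chosen as changed in normalized TE, and its normalized values are given as descriptions, beside the 773 matched listed genes with no listed uORF, which were chosen in the same way. The changes within each strain enter the normalized ones, so the members' counts there are descriptions too.

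Member leaders were longer than those of the other listed genes. Their median was 184 nt (quartiles 101 and 349), against 120 nt (68.8 and 209) in the listed genes with no uORF, and they ran between 23 nt in FRE6 and 4175 nt in ECM19. The predicted folding energy of the leader had a median of -27.7 in members and -15.2 in the others, on a scale whose unit the list does not state. Coding sequences were shorter, at a median of 1246.5 nt in members and 1512 nt in the others. The median percentage of G and C over the whole transcript was close, at 38.3 in members and 38.8 in the others. Both the leader and the 3′ UTR had the default lengths of 120 and 200 nt in 5 members and 76 of the others, so those transcript ends were not measured.

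The label was then checked by reading each leader of the listed length upstream of the coding start in the R64 reference of RefSeq. An AUG was present in 75 of the 92 member leaders, and an AUG with an in-frame stop inside the leader was present in 69. Another 6 held an AUG but none closed by a stop before the main start, and 17 held no AUG at all. Among 775 listed genes with no listed uORF, 310 (40%) had an AUG and its stop inside the leader. The number found equalled the listed number in 24 members, was lower in 38 and higher in 30. The leader ends came from the Pelechano annotation or the defaults, but the sources used here do not say how the uORFs were counted or whether near-cognate starts were allowed, so members are called here mRNAs with a listed uORF.

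The 17 members without an upstream AUG included URA2, which encodes the multifunctional enzyme that starts pyrimidine synthesis and has 8 listed uORFs on a leader of the default 120 nt. CTP1, the mitochondrial citrate carrier, had 4 listed uORFs on a 47-nt leader with no AUG. Conversely, ECM19 had 1 listed uORF and 73 AUGs in its 4175-nt leader. In 5 members (GDT1, SSA3, YGR127W, YGL176C and ISA2) the leader ran into another coding sequence on the same strand, over 589 of 975 nt in GDT1 and 263 of 536 nt in SSA3, so AUGs and reads there cannot be assigned to the leader alone.

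**Figure D1:**
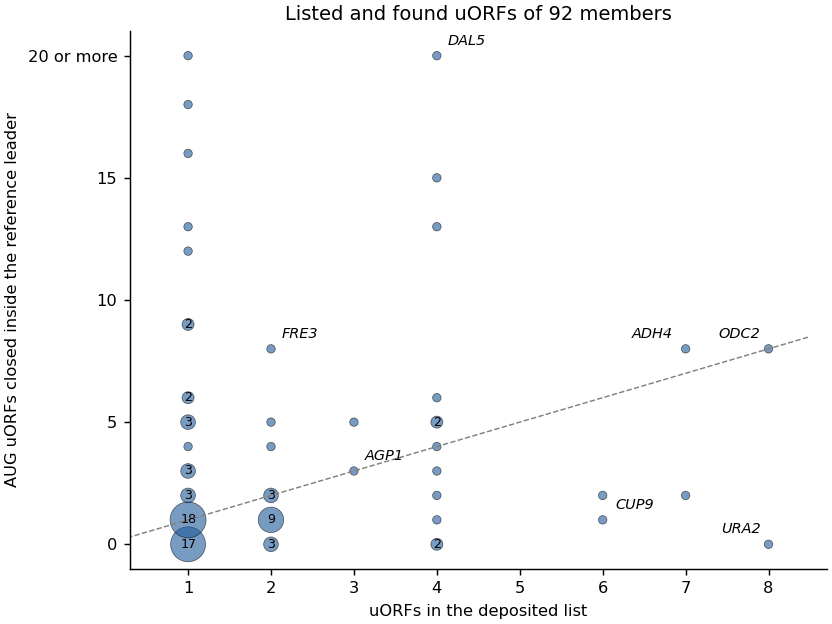
Number of uORFs closed inside the reference leader (vertical axis, capped at 20 or more) against the number in the deposited list (horizontal axis) for 92 members; circle area and the digits inside give the number of members, and the dashed line marks equality. The 24 members on the line include AGP1 and ODC2, whereas URA2 has 8 listed and none found.

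The clearest members are those whose listed and found numbers were equal, and their uORFs are printed here because the results below return to these mRNAs. FOL1, which encodes a folate synthesis enzyme, has its single uORF at chrXIV:164558-164569 (plus strand), 53 nt before the main start. GGC1, the mitochondrial GTP/GDP carrier, has a single uORF at chrIV:104605-104619 (minus strand). AGP1, an amino acid permease, has a 69-nt uORF at chrIII:77939-78007 (minus strand) that contains 2 minimal uORFs of a start and a stop codon at chrIII:77985-77990 and chrIII:77967-77972. ODC2, a mitochondrial 2-oxodicarboxylate carrier, has 9 AUGs that end at 8 different stops in its 509-nt leader (chrXV:757821-758329, plus strand), of which 3 short ones are shown at chrXV:757926-757931, chrXV:757937-757951 and chrXV:758206-758232. Capitals mark start and stop codons, and all sequences are from the R64 reference.
FOL1 uORF: ATGcaaaatTAG
GGC1 uORF: ATGgttaatattTAG
AGP1 inner uORF, upstream: ATGTAG
AGP1 inner uORF, downstream: ATGTAA
ODC2 AUG 2: ATGTAA
ODC2 AUG 3: ATGagacatggtTGA
ODC2 AUG 9: ATGcatttgcaagtaattctgttaTAA

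Short reading frames made up much of the total. The scan found 337 uORFs in member leaders, counted by their stops, with a median of 39 nt including start and stop and a range of 6 to 834 nt, and 148 were 30 nt or shorter. The median distance between their stops and the main start was 293 nt. These figures pool uORFs, so long leaders weigh most. ECM19 gave 56 of the 337, DAL5 25 and ZPS1 18, and the 293 nt exceeds the median member leader of 184 nt. Leaders that run into another coding sequence are included, with 13 uORFs in GDT1, 13 in YGL176C and 12 in ISA2. The pooled figures therefore do not describe a typical member. In 33 members a found uORF reached into the last 50 nt of the leader. That stretch was counted together with the coding sequence in the comparison tables, so footprints on those uORFs entered the ribosome occupancy of the gene.

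The bases around the starts differed between upstream and main AUGs. In yeast an A at the third base before the AUG favours recognition. It was present at 27.8% of 432 upstream AUGs closed in member leaders and at 63.0% of the 92 member main starts. In the listed genes with no uORF it was present at 31.1% of 1657 such upstream AUGs and at 62.5% of 775 main starts. The upstream shares pool AUGs, so long leaders weigh most there too. Single genes varied around these shares, as 3 of them show, with 6 bases before and 3 after each AUG given here and the AUG in capitals. FOL1 lacks the A at either start, and AGP1 has T at the long uORF and A at the main start. CUP9, a transcriptional repressor of peptide import, has A at both its closed uORF and its main start, and T at a further AUG whose frame overlaps the main start.
FOL1 uORF start: tagtaaATGcaa
FOL1 main start: ttggctATGtca
AGP1 long uORF start: tctttgATGgtc
AGP1 main start: cgcacaATGtcg
CUP9 closed uORF start: aagattATGtta
CUP9 overlapping AUG: acttttATGcta
CUP9 main start: tcgaagATGaat

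**Figure D2:**
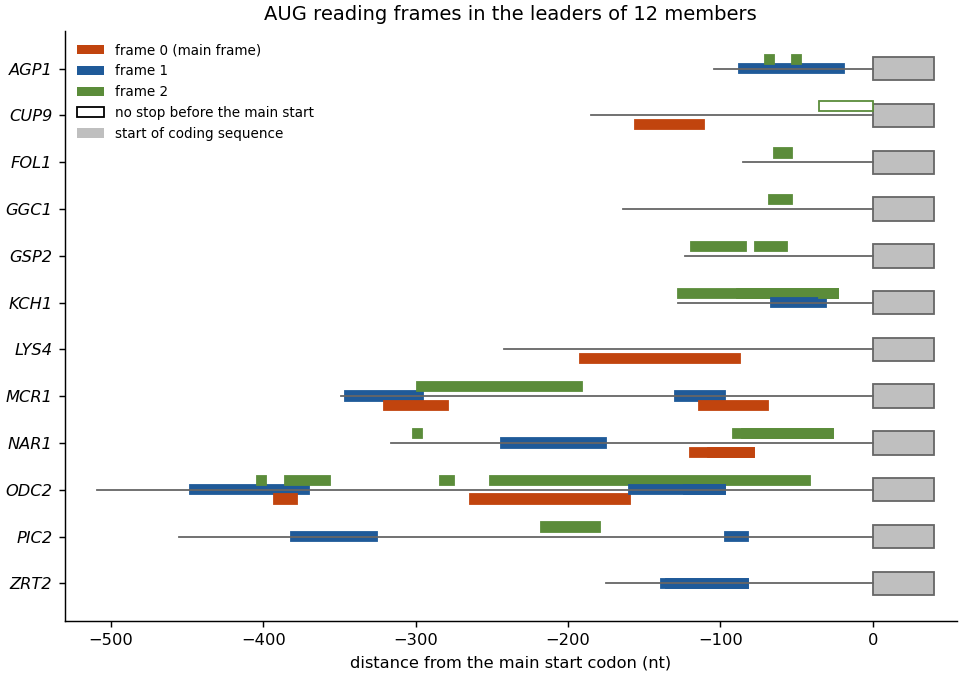
AUG reading frames in the leaders of 12 members, drawn to scale by distance in nt from the main start codon; colours give the frame, open boxes have no stop before the main start, and grey boxes mark the start of the coding sequence. ODC2 carries 9 AUGs over 509 nt, GGC1 a single uORF, and CUP9 a closed uORF plus an overlapping AUG.

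Members had a lower median of footprints per mRNA than the other listed genes, as a description. The mean footprint signal over the ribosome-profiling libraries was divided by the mean RNA signal over the RNA-seq libraries, both as deposited means, so the ratio has an arbitrary scale and no replicate error. Its median was 0.721 in members (quartiles 0.332 and 1.46), against 1.22 (0.464 and 2.18) in the 773 listed genes with no uORF and 1.317 (0.714 and 2.28) in 5346 genes with a mean RNA signal of at least 20. Of the 92 members, 46 (50%) lay below the lower quartile of all genes, as did 248 (32.1%) of the others.

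The low ratio went with the number of listed uORFs and with the leader as read in the genome. Members with 2 or more listed uORFs had a median of 0.497 and those with 1 had 1.07. The 69 members with a uORF found in the reference leader had 0.604, against 1.43 in the 23 without. Leader length moved with it too: members with leaders under 100 nt had a median of 0.879 and the other listed genes 1.31, leaders of 400 nt or more gave 0.462 and 0.796, and members were lower in each of the 4 length classes examined. Its part in the difference was not tested further.

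The lowest ratios belonged to a reductase, permeases and an enzyme. FRE3, a ferric reductase, had 0.0469 and the allantoate permease DAL5 0.0506, on mean footprint signals of only 19.17 and 4.54. With more signal, the alcohol dehydrogenase ADH4 had 0.0724 and the zinc transporter ZRT2 0.0815. The highest belonged to BUR6, a subunit of the NC2 transcription regulator, at 14.97, with a mean RNA signal of 34.43. YAP7, a repressor of the Yap family, followed at 4.34.

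**Figure D3:**
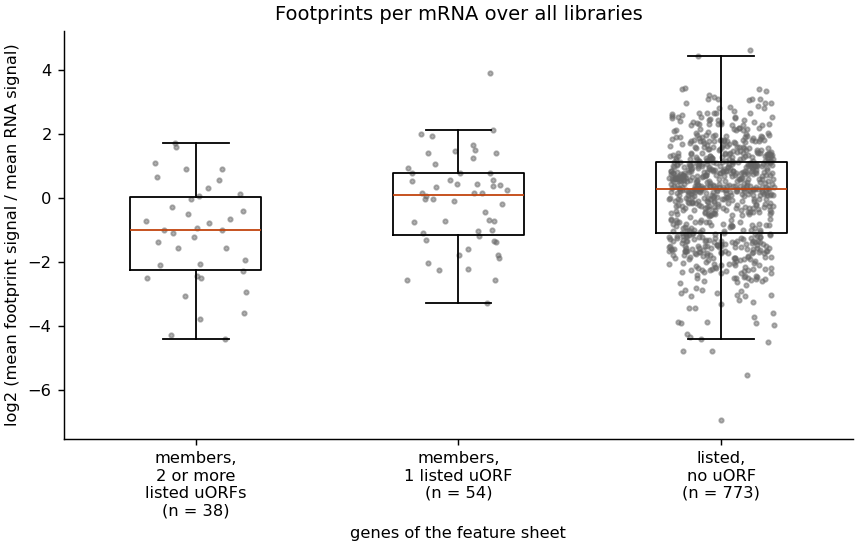
Footprints per mRNA, as log2 of mean footprint signal over mean RNA signal, for members with 2 or more listed uORFs (n = 38), members with 1 (n = 54) and listed genes with no uORF (n = 773); boxes give median and quartiles, points are genes. The box of the members with 2 or more uORFs sits lowest, its median corresponding to a ratio of 0.497, against 1.22 in the listed genes with no uORF.

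Each comparison table gives a log2 fold change shrunk towards 0 with its standard error, and a gene is called here when its adjusted Wald p over the whole table is 0.05 or less. Values were scaled within each assay, so a change per cell shared by all mRNAs was not measured, and counts per library were not used here, so the depth behind these values is unknown.

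For mRNA levels at 37°C against 25°C in cdc33-ts4-2 cells, 45 members were higher and 24 lower, with a median log2 change of 0.32. These were 48.9% and 26.1% of members, against 30.4% and 27.9% of all genes in the table. The other listed genes were 53.7% higher and 29.9% lower. In CDC33 cells 25 members were higher and 6 lower, or 27.2% and 6.52%, against 19.9% and 17.2% of all genes. In normalized RNA 29 members were higher and 17 lower (31.5% and 18.5%), against 14.8% and 13.2% of all genes and 40.4% and 24.2% of the other listed genes, which were chosen in the same way. The members with 2 or more listed uORFs had 17 higher and 7 lower of 38, and those with 1 had 12 and 10 of 54.

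The members with the largest normalized RNA increases encode a zinc transporter and proteins of mitochondria and iron–sulfur assembly. ZRT2 changed by 2.24 ± 0.23 in cdc33-ts4-2 and by 0.05 ± 0.21 in CDC33 cells (log2 ± SE, n = 3 libraries a group), and its normalized value was 2.04 ± 0.34. NAR1, required for cytosolic iron–sulfur protein assembly, had a normalized value of 2.02 ± 0.40 and GGC1 of 1.76 ± 0.36. ODC2 was higher in cdc33-ts4-2 (1.04 ± 0.10) and lower in CDC33 cells (-0.80 ± 0.10), with a normalized value of 1.83 ± 0.15 (DESeq2, adjusted p = 9.38e-36). These values include reads at the end of the leader, which was counted with the coding sequence. Mean RNA-seq reads per nt in the whole ODC2 leader, relative to the coding sequence, were 17.3 at 37°C and 0.887 at 25°C in cdc33-ts4-2. In CDC33 cells they were 2.23 and 0.366. How much of the ODC2 change came from leader reads was not tested.

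The mRNAs with the largest decreases encode a mitochondrial reductase, a Ran GTPase and an outer-membrane protein. MCR1, NADH-cytochrome b5 reductase, fell by 1.93 ± 0.15 in cdc33-ts4-2 and changed by 0.16 ± 0.13 in CDC33 cells, for a normalized value of -2.06 ± 0.20 (DESeq2, adjusted p = 8.41e-25). GSP2 was lower in cdc33-ts4-2 (-0.57 ± 0.15) and higher in CDC33 cells (1.19 ± 0.15), which gave -1.75 ± 0.21. GSP2 has the near-identical paralog GSP1, so its reads may be split between them. SCM4, a mitochondrial outer-membrane protein, had a normalized value of -1.55 ± 0.29.

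Ribosome occupancy, the footprint level not divided by RNA, was higher for 29 members and lower for 35 in cdc33-ts4-2 cells, with a median of -0.02. These were 31.5% and 38.0% of members, against 26.2% and 27% of all genes and 22.5% and 52.8% of the other listed genes. In CDC33 cells 20 members were higher and 17 lower, or 21.7% and 18.5%, close to the 19% and 20.5% of all genes. In normalized occupancy 11 were higher and 20 lower (11.96% and 21.7%), where 7.42% and 10.5% of all genes passed. The other listed genes were 6.86% higher and 29.5% lower.

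NCW2 (YLR194C), a cell wall protein, had a normalized occupancy of 1.43 ± 0.28, with 1.53 ± 0.19 in cdc33-ts4-2 and 0.00 ± 0.16 in CDC33 cells (n = 2 libraries a group). PIC2, a mitochondrial copper and phosphate carrier, had 1.24 ± 0.37, and was higher in both strains. GLG1, the glycogenin that primes glycogen synthesis, had 1.21 ± 0.76 and CMR3 (YPR013C), a putative zinc finger protein, 1.21 ± 0.63, both with wide errors. PIP2, an activator of peroxisomal genes, had 1.18 ± 0.34 and BUR6 1.13 ± 0.28.

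The largest decreases in occupancy included a cell-cycle repressor and nucleotide enzymes. YOX1, a homeodomain repressor, was lower in cdc33-ts4-2 (-1.46 ± 0.26) and higher in CDC33 cells (0.68 ± 0.23), for a normalized value of -2.15 ± 0.36. IMD4, an IMP dehydrogenase of GTP synthesis, fell by 2.77 ± 0.27 in cdc33-ts4-2 and by 0.78 ± 0.22 in CDC33 cells, for -1.73 ± 0.36. URH1, a nucleoside hydrolase, had -1.45 ± 0.28, with opposite calls in the strains, and GUP1, a membrane O-acyltransferase, -1.35 ± 0.25. Both URH1 and GUP1 are among the members without an AUG in the reference leader.

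TE combined these changes. In cdc33-ts4-2 cells 33 members were higher and 50 lower (35.9% and 54.3%), beside 24% and 28.4% of all genes. The other listed genes were 27.6% higher and 67.0% lower. The median was -0.88 in members and -1.26 in the other listed genes. This change enters normalized TE, so these shares partly follow from the choice of the list. In CDC33 cells 11 members were higher and 16 lower, beside 9.38% and 9.8% of all genes. In normalized TE 37 were higher and 55 lower by the choice of the list, where 5.09% and 11.6% of all genes passed. The higher ones made up 40.2% of members, against 29.2% of the 773 listed genes with no uORF. An exact 95% interval of the members' share, 30.1% to 51.0%, covers counting over genes only. It treats genes as independent, and the list was chosen on this same change, so it is no test of the difference.

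That share is also given by listed number and by leader, without a test. It was 34.2% in members with 2 or more listed uORFs and 44.4% in members with 1. With none listed it was 29.2%, so it did not follow the order of the number. It was 43.5% in the 69 members with a uORF found in the reference leader, against 30.4% in the 23 without, and 2 of the 17 members with no AUG were higher. Among listed genes with no listed uORF it was 35.9% in the 309 with a found uORF and 24.8% in the 464 without. With leaders of 400 nt or more, the share was 45.5% in members and 46.2% in the other listed genes, and with leaders under 100 nt it was 34.8% and 23.8%. The paper found no strong correlation of the TE change with uORF number or leader length.

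Changes in mRNA and in footprints both entered the members' TE. Of the 37 members with higher normalized TE, 17 had a lower and 2 a higher normalized RNA, and 10 had a higher normalized occupancy. Of the 55 with lower TE, 27 had higher RNA, and 20 had lower occupancy and 1 higher. In 10 of each set neither RNA nor occupancy passed on its own. A lower RNA thus accompanied a higher TE in 45.9% of these members, against 167 of 226 (73.9%) of the other listed genes, and the difference was not tested. TE and RNA share the RNA libraries, so noise in an RNA value enters TE with the opposite sign.

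MCR1 had the largest normalized TE increase of the members, 1.66 ± 0.28 (DESeq2, adjusted p = 3.26e-08), with a normalized occupancy of -0.12 ± 0.21 and the RNA decrease given above. PIC2 (1.42 ± 0.38) and BUR6 (1.29 ± 0.53) instead had higher occupancy, with normalized RNA of -0.30 ± 0.23 and -0.41 ± 0.45. ECM19, a protein of unknown function, had 1.34 ± 0.33 and GSP2 1.22 ± 0.44. FRE3 had 1.26 ± 0.72 on few footprints, its occupancy being 0.12 ± 0.54 in cdc33-ts4-2 and -3.58 ± 0.83 in CDC33 cells.

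IMD4 had the largest decrease, -3.53 ± 0.62 (DESeq2, adjusted p = 1.73e-09), with RNA higher by 1.66 ± 0.35 and the lower occupancy described above. IMD4 has near-identical paralogs, so its reads are uncertain. GDT1, a Golgi calcium and manganese transporter, had -1.88 ± 0.49, FRE6, a vacuolar ferric reductase, -1.85 ± 0.55, and KCH1, a potassium transporter, -1.54 ± 0.43. POL12, the B subunit of DNA polymerase alpha, had -1.49 ± 0.39, and its decrease stood in occupancy (-1.21 ± 0.35) with RNA at 0.22 ± 0.26. SSA3, a heat-inducible Hsp70 with near-identical relatives, had -1.56 ± 0.83, and its occupancy was higher by 3.31 ± 0.84 in cdc33-ts4-2 and by 6.36 ± 0.50 in CDC33 cells.

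FRE6 and KCH1 show how the listed and found uORFs can part. FRE6 has a 23-nt leader that opens with a uORF at chrXII:39474-39494 (minus strand), ending 2 nt before the main start, and 2 listed uORFs. KCH1 has 7 listed and 4 AUGs ending at 2 stops, the last AUG at chrX:536021-536032 (plus strand). Start and stop codons are in capitals.
FRE6 uORF: ATGacgaccatagctcgtTGA
KCH1 last uORF: ATGaatattTGA

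FOL1, described before with a uORF, had a TE change of -1.75 ± 0.24 in cdc33-ts4-2 and -0.61 ± 0.21 in CDC33 cells, for a normalized -0.88 ± 0.32, with normalized RNA at 0.57 ± 0.22 and occupancy at -0.22 ± 0.24. Among the members with the most listed uORFs, URA2 had a normalized TE of -1.14 ± 0.65, ODC2 of -1.45 ± 0.29, ADH4 of -1.02 ± 0.48 and KCH1 the decrease given above.

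**Figure D4:**
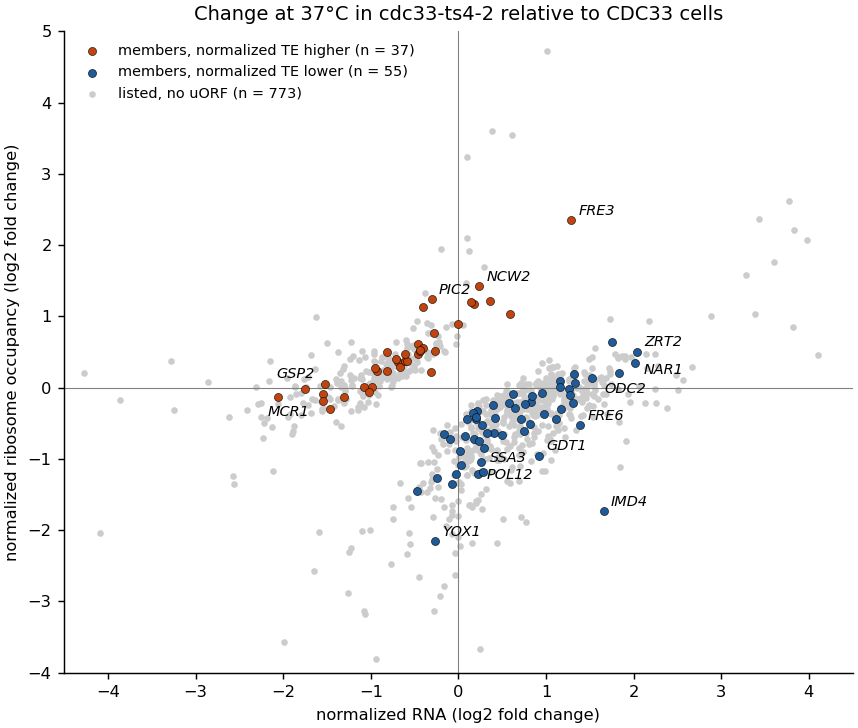
Normalized ribosome occupancy against normalized RNA (log2 fold changes at 37°C over 25°C, cdc33-ts4-2 relative to CDC33) for members with higher (red, n = 37) or lower (blue, n = 55) normalized TE and listed genes with no uORF (grey, n = 773, of which 2 lie outside the plotted range). MCR1 and GSP2 lie far to the left near an occupancy of 0, PIC2 high and near an RNA of 0, and IMD4 at 1.66 in RNA and -1.73 in occupancy.

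The members fell into several functions, grouped here after their names and values were known, so the counts are a description. Over all 92 members, 59.8% had lower normalized TE and 31.5% higher normalized RNA, and over all genes 11.6% and 14.8%. All 6 members of nucleotide and folate synthesis or salvage (IMD4, URA2, PRS5, APT2, URH1 and FOL1) had lower normalized TE, and 5 had higher RNA. PRS5, a phosphoribosyl-pyrophosphate synthetase subunit, had a normalized RNA of 1.17 ± 0.35 and a TE of -1.35 ± 0.49. The 5 members GPI13, KRE2, MNT2, SUR1 and SEC59, of glycosylation, GPI anchoring or sphingolipid synthesis, were also lower in TE, 3 of them with lower occupancy, for example the GPI ethanolamine-phosphate transferase GPI13 at -1.09 ± 0.30.

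Metal transport and iron–sulfur assembly held 10 members, 8 with lower and 2 with higher TE, and 7 with higher RNA. ENB1, the transporter of the siderophore enterobactin, had a normalized RNA of 1.11 ± 0.37, and ISA2, a mitochondrial iron–sulfur assembly factor, went the other way in TE at 1.04 ± 0.33. Of 10 transcription regulators 7 had higher TE, among them MBP1, which drives genes of the G1/S transition, at 1.09 ± 0.31 and CUP9 at 0.99 ± 0.25. The 3 lower ones were LEU3, MIG3 and YOX1. The mitochondrial carriers split, with PIC2 and AGC1 higher and ODC2, CTP1 and GGC1 lower, as did 6 genes of DNA replication and chromosome maintenance, with 3 in each direction.

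Genes of the surrounding pathway were read from lists of their roles. Of 31 factors of start codon recognition, scanning and reinitiation, normalized RNA was higher for 7 and lower for 1, occupancy was higher for 1 and lower for 3, and TE was lower for 7. Over all genes the shares were 14.8% and 13.2% in RNA, 7.42% and 10.5% in occupancy, and 11.6% lower in TE, so the occupancy counts lie close to the background. The 7 with lower TE were GCD11, NIP1, PRT1, RLI1, DED1, TIF4631 and GCD6. NIP1, an eIF3 subunit, had -1.66 ± 0.25, and DED1, a scanning helicase, -1.32 ± 0.58. Of 8 genes for decay of mRNAs with early stops, NAM7, the helicase known as Upf1, was lower in normalized TE and the other 7 did not pass. Of 22 mRNAs described with uORFs, 2 were higher in normalized TE, among them CAD1, and 3 lower (TIF4631, LEU4 and FOL1). CAD1, TIF4631 and LEU4 are not members, since they have no listed uORF, although an AUG stands in the leaders of CAD1 and TIF4631.

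Reads within leaders were given separately as the density of leader reads per nt over coding reads per nt in each library. Of 92 members, 12 had a value in all 20 libraries, 51 had blank values and 29 were not in the table. The study's methods say that outlying densities were filtered out, and whether this left the blanks was not tested. The complete members do not stand for all 92, and 1218 of the 3933 lines in that table were complete. Footprint and RNA-seq densities were compared by exchanging assay labels within strain and temperature (permutation of 10000 exchanges, 2-sided, adjusted over the 1218 genes, smallest p 1e-04).

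Footprint density in the leader was below RNA-seq density for 10 of the 12 members and above it for 1, where 73.4% of all complete genes were lower and 9.85% higher. The median log2 difference was -1.39 in members, -2.11 in 254 listed genes with no uORF and -1.88 in all 1218. CUP9 was the member with more footprint than RNA density, by 0.45 on the log2 scale (permutation adjusted p = 0.0234). Its footprint densities were 2.40 and 1.88 in cdc33-ts4-2 at 37°C, 1.18 and 1.18 at 25°C, 1.53 and 1.72 in CDC33 at 37°C, and 0.554 and 1.35 at 25°C. Its RNA-seq densities ran between 0.769 and 1.57 over the 12 libraries. The call on CUP9 depended on a single library, since without replicate 2 of CDC33 at 25°C the adjusted p was 0.180 in the same permutation test.

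URA2 did not pass, at 0.13 (permutation adjusted p = 0.662), with footprint densities between 0.181 and 0.303. STE23, the metalloprotease that helps to mature a-factor, had the lowest footprint density, at 0 in 5 of 8 ribosome-profiling libraries on a leader of 28 nt. PIC2 (-0.58), LYS4 (-1.30), MCR1 (-1.48), GSP2 (-1.73), AGP1 (-1.97) and PRS5 (-2.14) were all lower in footprints than in RNA-seq. PRS5 and STE23 have no AUG in the reference leader.

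**Figure D5:**
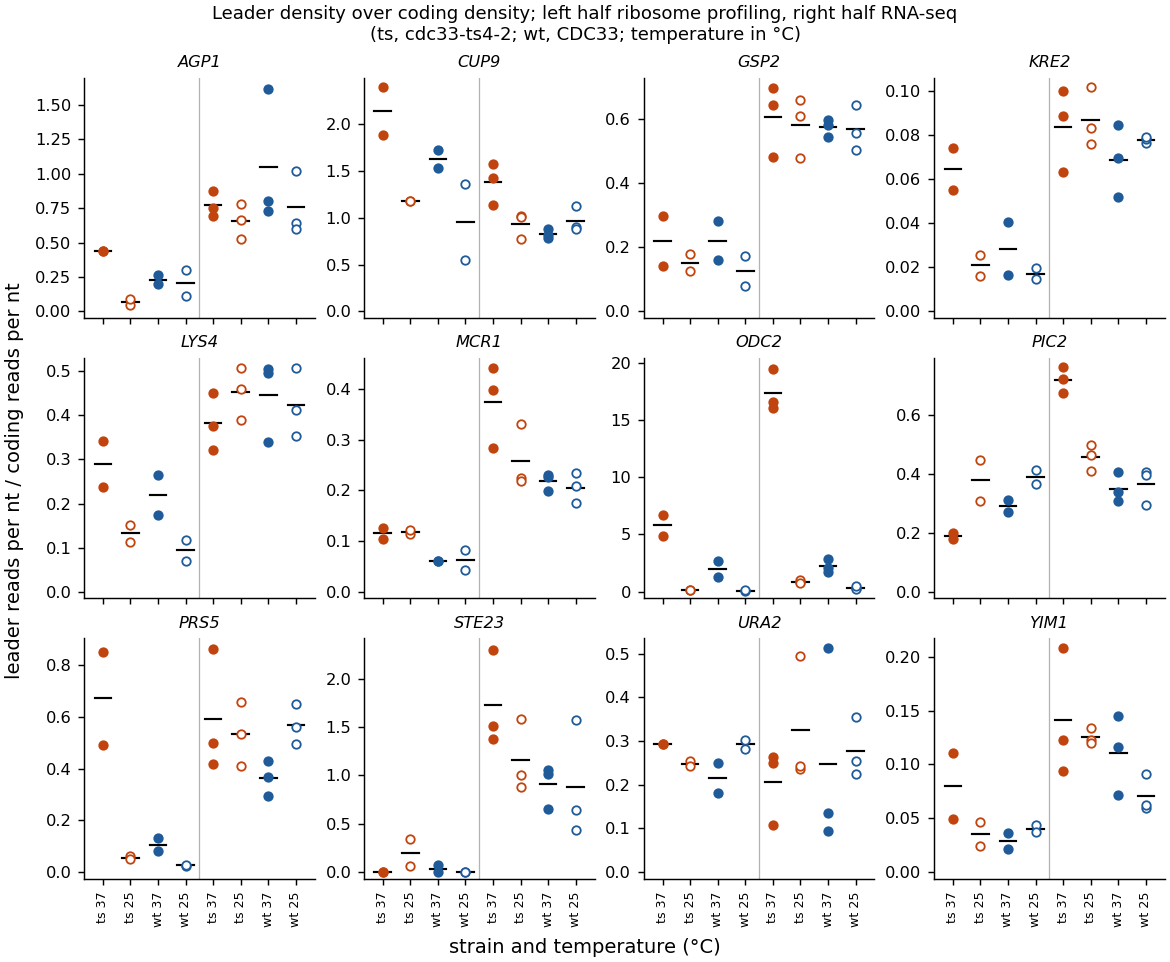
Leader density over coding density in each of 20 libraries for the 12 complete members; in each panel the left 4 columns are ribosome profiling and the right 4 RNA-seq, filled points are 37°C, open points 25°C, red cdc33-ts4-2, blue CDC33, and bars are group means. ODC2 reaches 6.73 in footprints and 19.4 in RNA-seq in cdc33-ts4-2 at 37°C, and CUP9 is the only panel called higher in footprints.

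The change of leader footprint density with temperature was described per library, as 2 against 2 libraries cannot give an exact p below 0.33. Each density is relative to the coding sequence, so a higher value can reflect more leader reads or fewer coding reads. These were not told apart. In cdc33-ts4-2 the median over members was 0.237 and 0.265 at 37°C and 0.129 and 0.118 at 25°C, a ratio of 2.04 ± 0.21. Here ± is a standard deviation carried over from the 2 library medians at each temperature, not an error over genes. Listed genes with no uORF had 2.87 ± 0.16 and all complete genes 2.62 ± 0.21. In CDC33 cells the median was 0.167 and 0.255 at 37°C and 0.0625 and 0.115 at 25°C, a ratio of 2.38 ± 1.22, beside 1.99 ± 0.71 and 2.00 ± 0.55. With each footprint density divided by the RNA-seq density of the same leader, the ratio in CDC33 cells was 1.49 ± 0.89 in members. The other 2 sets had 2.52 ± 0.90 and 2.28 ± 0.61, so the order of members and other genes turned, within these wide spreads. In cdc33-ts4-2 the divided ratio was 2.05 ± 0.40, beside 2.62 ± 0.24 and 2.12 ± 0.18. The densities of the 2 temperatures did not overlap, with 37°C higher, for 8 members in cdc33-ts4-2 (62.4% of all genes) and 4 in CDC33 (55.7%). With 37°C lower there were 2 and 3 members, beside 4.52% and 7.96% of all genes.

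ODC2 moved most. Its footprint density was 6.73 and 4.91 in cdc33-ts4-2 at 37°C and 0.130 and 0.131 at 25°C, a ratio of 44.6. In CDC33 it was 1.31 and 2.71 at 37°C and 0.0545 and 0.162 at 25°C, a ratio of 18.6. Both strains were higher at 37°C without overlap, and the leader's RNA-seq density moved alongside, at 16.0, 19.4 and 16.6 in cdc33-ts4-2 at 37°C against 0.852, 1.06 and 0.745 at 25°C. In CDC33 the RNA-seq density was 2.11, 1.74 and 2.83 at 37°C against 0.311, 0.253 and 0.533 at 25°C. A density above 1 in RNA-seq means more reads per nt in the leader than in the coding sequence. The ODC2 leader overlaps no other coding sequence on the same strand, and whether the reads came from another transcript was not tested. Reads at the end of this leader also entered the RNA, occupancy and TE values of ODC2. Their part in those values was not tested.

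AGP1 and PRS5 followed at smaller scale. AGP1 had 0.441 and 0.438 in cdc33-ts4-2 at 37°C, against 0.0461 and 0.0916 at 25°C. In CDC33 it had 0.200 and 0.262 at 37°C against 0.302 and 0.113 at 25°C, which overlap. The RNA-seq densities of AGP1 in cdc33-ts4-2 were 0.752, 0.690 and 0.875 at 37°C against 0.527, 0.666 and 0.779 at 25°C, an overlap, so the footprint ratio of 6.38 was not matched in RNA. PRS5 had 0.850 and 0.492 in cdc33-ts4-2 at 37°C against 0.0610 and 0.0504 at 25°C, a ratio of 12.04, and in CDC33 0.0815 and 0.131 at 37°C against 0.0247 and 0.0262 at 25°C.

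PIC2 was the member whose leader footprint density was lower at 37°C without overlap in both strains. Its footprint density was 0.180 and 0.200 in cdc33-ts4-2 at 37°C against 0.449 and 0.309 at 25°C, and 0.313 and 0.271 in CDC33 at 37°C against 0.365 and 0.413 at 25°C. Its RNA-seq density in cdc33-ts4-2 was higher at 37°C, at 0.722, 0.676 and 0.764 against 0.466, 0.411 and 0.498 at 25°C. MCR1, the member with the largest TE increase, overlapped between temperatures in the leader of cdc33-ts4-2, with 0.105 and 0.126 at 37°C against 0.113 and 0.122 at 25°C, and its ratio was 0.982 there and 0.979 in CDC33. GSP2 overlapped between temperatures in both strains, and URA2 and YIM1, a protein of unknown function, went opposite ways in the 2 strains.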

How the data were processed

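RNA-seq and ribosome profiling were done on CDC33 and cdc33-ts4-2 yeast at 37°C and 25°C, with 3 and 2 replicates a group. Reads were processed by the authors with cutadapt 4.1 and HISAT2 2.2.1 (noncoding RNA removed), quantified on coding sequences with 50 nt on each side with Salmon 1.9.0, and compared with DESeq2 1.32.0, versions as in the submitters' processing notes. The deposited comparison tables hold ashr-shrunken log2 fold changes, standard errors, Wald p-values with Benjamini-Hochberg adjusted values, and a mean signal over the libraries of each model. They are the authors' own comparisons and were read as deposited, because no counts per library were used here and no model could be refitted. Their replicate spread could not be re-examined, and p-values measure the spread between these samples. The deposited feature list gives each gene's TE change as a ratio on a linear scale, the lengths of leader, coding sequence and 3′ UTR, its uORF number and folding energies. Leader densities were deposited as a ratio of reads per nt in the leader to reads per nt in the coding sequence, made by the authors with STAR 2.7.10b on R64-1-1 and featureCounts 2.01 (at least 50% of a read in the feature, sense strand), with outlying densities removed by the ROUT method.

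Here members (at least 1 listed uORF) were counted by direction at an adjusted p of 0.05 or less in 9 tables, and leaders were read from the R64 reference for AUGs and in-frame stops. Footprint and RNA-seq leader densities were compared on log2(density + 0.01) in the 1218 complete lines by permutation, tested on simulated data with known answers. The members and gene lists were chosen with earlier results of these data known, and the function groups after names and values were seen. Genes named are members described before with uORFs, the 6 largest normalized TE changes in each direction, the 4 largest called changes in normalized RNA and occupancy (mean of at least 20), the 4 with the most listed uORFs and the 4 with extreme leader densities or leader changes. Others were named after their values were seen. A few genes that meet this rule are not reported here. Of 869 listed genes 866 were matched to the tables, 8 by an older symbol. Replicate numbers were not treated as pairs, except in the replicate-block alternative. Alternatives were an adjusted p of 0.01, a mean of at least 20, other pseudocounts, means in place of medians, division by RNA-seq density, and single libraries left out. Python 3.11.15, numpy 2.4.6, pandas 2.3.3, scipy 1.17.1 and matplotlib 3.10.9 were used.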

Additional observations from a re-analysis of the deposited data

Results flagged for a closer look

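The change at 37°C differed between cdc33-ts4-2 and CDC33 cells, by the test of the difference itself, for 46 members in RNA and for 31 in ribosome occupancy. It did so for all 92 in TE, by the choice of the list. Over all genes 14.8% were higher and 13.2% lower in normalized RNA, and 7.42% and 10.5% in occupancy. The other listed genes, chosen in the same way, had 40.4% and 24.2% in RNA, and 6.86% and 29.5% in occupancy.

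In a few members the strains had calls in opposite directions and the difference between them was also called. In RNA these were ODC2, with a difference of 1.83 on the log2 scale between cdc33-ts4-2 and CDC33 cells, AGC1 (-1.02), CUP9 (-1.30), SCM4 (-1.55) and GSP2 (-1.75). ODC2 and AGC1 are mitochondrial carriers that moved in opposite directions. The RNA values of ODC2 include reads at the end of its leader, and their part in the difference was not tested. In ribosome occupancy the members with opposite calls were BUR6 (1.13), URH1 (-1.45) and YOX1 (-2.15). Such opposite calls were seen for 5 of 92 members in RNA and 3 in occupancy, against 71 and 25 of the 773 listed genes with no uORF. They were thus not particular to members, and their share over all genes was not counted.

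The footprint density of 2 leaders moved in opposite directions in the strains, with every library at 37°C on the same side of every library at 25°C. URA2 had a ratio of 37°C to 25°C of 1.18 in cdc33-ts4-2 and 0.735 in CDC33 cells, and YIM1 of 2.23 in cdc33-ts4-2 and 0.711 in CDC33 cells. The differences between strains were not tested, with 2 libraries a group. Of all 1218 complete genes 39 (3.2%) behaved in this way.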

How the results depend on the processing

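Of 60 alternatives, 55 gave a count of calls of similar size, or a ratio or share within its spread. For counts, neither direction nor the genes behind them was compared, so single genes could cross the threshold. At an adjusted p of 0.01 the members called fell to 20 in RNA of CDC33 cells (31 at 0.05), to 17 in TE of CDC33 cells (27) and to 41 in normalized TE (92). The ratio of leader footprint density at 37°C to 25°C in cdc33-ts4-2 was 2.04. It was 3.79 with the mean over members and 2.36 with members above 0 in every footprint library. ODC2 holds the largest single ratio behind that mean. Leaving out each library in turn gave 1.92 to 2.16 in cdc33-ts4-2, 1.84 to 3.38 in CDC33 cells, and 10 to 11 members called between assays. No library could be left out of the comparison tables.

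With labels exchanged only within a replicate number (a replicate block), 9 members were called, and PIC2 (permutation adjusted p = 0.116) and CUP9 (permutation adjusted p = 0.0704) were lost. In leader densities the differences between replicates of the assays correlated at -0.0129 to 0.0383, so no pairing by number was seen there. This cannot exclude pairing, since the paper put the same cells through both assays. The labels do not say whether equal numbers mark the same culture, so both results are given.

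The share with higher normalized TE exceeded that of the other listed genes by 10.98 percentage points, by 4.97 with 2 or more uORFs and by 7.68 beside long leaders. In comparisons chosen after seeing the data it was 12.25 for found uORFs over all listed genes and 14.24 for members with a found uORF. Without leaders that overlap another coding sequence on the same strand it was 9.84. With 12 of 92 members complete, leader densities limit what can be said of the rest.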

Other observations

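Mean signals were lower in members than in the other listed genes for both assays. The median mean RNA signal was 336.1 in members and 613.2 in the listed genes with no uORF, and the median mean footprint signal was 270.4 in members and 694.1 in the others.

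Footprints per mRNA also differed by the direction of the TE change. The 37 members with higher normalized TE had a median ratio of 1.36 and a median coding length of 939 nt, and the 55 with lower normalized TE had 0.462 and 1560 nt. In the other listed genes the medians were 1.99 and 937.5 nt with higher TE, and 0.900 and 1749 nt with lower TE. The lower ratio and the longer coding sequence thus stood with lower TE in both sets, and their part in it was not tested.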
